A study of Homo sapiens with 12 samples.

Results

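The response to doxycycline (DOX) was compared between CAL27 and HSC3 cells across all genes and all 12 libraries of the series, so that each gene could be placed as changed in 1 line only, changed in opposite directions, or changed alike in both. All 12 of 12 libraries entered the comparison. CAL27 and HSC3 are established HPV-negative head and neck squamous cell carcinoma (HNSCC) lines, and both carry tet-MUC1shRNA, a vector that makes a short hairpin RNA against MUC1 when DOX is in the medium. The 4 groups were CAL27 with vehicle (0.1% DMSO), CAL27 with 500 ng/ml DOX, HSC3 with vehicle and HSC3 with DOX, each with 3 libraries and each treated for 7 days. Libraries of DOX-treated cells carrying a control hairpin were not analysed here, so an effect of DOX itself and an effect of the hairpin cannot be told apart. The lines also differ in culture medium, and any batch of RNA or sequencing follows the line, so these and the line cannot be told apart either.

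MUC1-C is the transmembrane subunit of the MUC1 mucin, and its cytoplasmic tail binds kinases and transcription factors. Type I interferons act through complexes that hold STAT2 and IRF9 and bind interferon-stimulated response elements (ISREs) near a set of interferon-stimulated genes (ISGs). Squamous carcinoma cells also make their own ligands of the epidermal growth factor receptor (EGFR), whose signalling raises AP-1 factors such as FOSL1 and feeds back through phosphatases such as DUSP4.

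Levels are given in CPM, counts scaled to a common library size after TMM normalization over the 12 libraries. A response is the log2 fold change of DOX over vehicle, and the line difference is the HSC3 response minus the CAL27 response, so that a value above 0 means a response that was higher in HSC3. Errors are standard errors of the edgeR fit with n = 3 libraries a group. Each gene's spread was estimated once over all 12 libraries, so an error does not give the spread of 1 line. The p-values are adjusted by the Benjamini-Hochberg method over the 20694 genes tested. A gene was called if it had both an adjusted p under 0.05 and a log2 value of more than 1 in size.

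MUC1, the targeted gene, stood at 58.4, 53.1 and 54.3 CPM in the CAL27 vehicle libraries and at 2.92, 2.76 and 3.25 with DOX. In HSC3 it stood at 1.66, 1.97 and 1.64 with vehicle and at 0.310, 0.267 and 0.132 with DOX. The groups did not overlap in either line. The responses were -4.21 ± 0.14 and -2.85 ± 0.19, with a line difference of 1.36 (adjusted p = 0.001). The HSC3 vehicle libraries thus held far less MUC1 than those of CAL27. The difference did not pass the test with limma voom (1.01, adjusted p = 0.2) or with counts divided by counts per molecule (1.31, adjusted p = 0.097). The 10 squamous epithelial markers summed to 7087 to 7437 CPM in CAL27 vehicle libraries and to 7265 to 8012 in HSC3, and to 3680 to 3967 and 3908 to 4334 with DOX. The sums over 8 fibroblast, 9 blood and 6 endothelial markers were at most 14.2, 5.36 and 15.7 CPM in any library, and 5 of the 9 blood markers had no count in the HSC3 vehicle libraries.

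The libraries held 89730914 to 169065103 counts. The number of molecules behind them differed between the lines and moved with DOX in HSC3. Counts per molecule, estimated from how often genes with a low expected count had none, were 2.45 to 3.33 in the 6 CAL27 libraries, 4.18 to 7.43 in HSC3 with vehicle and 8.93 to 17.2 in HSC3 with DOX. Genes with any count numbered 23707 to 24685 in CAL27 libraries and 19128 to 21243 in HSC3 libraries. In HSC3 with DOX, library 1 had 17.2 counts per molecule and 19128 genes with a count. Libraries 2 and 3 had 8.93 and 11.3 counts per molecule and 20910 and 19699 genes. The disagreement of replicate libraries was measured as chi-square per degree of freedom. It was 141 and 90.9 for pairs with HSC3 DOX library 1 and 23.2 for the other pair of that group. Pairs within the other groups gave 7.71 to 31.4. The part of this in the responses below was not tested, but the counts divided by these estimates gave another fit. Its result is given for MUC1 and for the number of genes higher in HSC3. The line differences of SOX2, KRT13, VCAN, KRT16P6, MX2 and TP63 also did not pass the test in that fit. Its shifts in list medians are not given.

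In HSC3, 1237 genes were called lower with DOX and 545 higher (5.98% and 2.63% of genes tested). In CAL27, 568 were called lower and 174 higher (2.74% and 0.841%). These counts come from 1 fit in which all 12 libraries shared an estimate of spread. With each line fitted alone, 793 and 284 genes were called in HSC3 and 984 and 252 in CAL27, so the order of the lines in the number of genes called lower turned with the fit. DOX and vehicle libraries did not overlap for 49.2% of genes tested in CAL27 and 38.2% in HSC3. The line difference was called for 1078 genes (5.21%). Of these, 624 lay below 0 (3.02%) and 454 above 0 (2.19%). Of the 1078, 562 had a mean of at least 1 CPM in both lines, and 229 were under 1 CPM in both.

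Classes were made among the 12144 genes with at least 1 CPM in both lines. CAL27-led genes had a called difference and a called response in CAL27, with a smaller response in the same direction, or none past the test, in HSC3. There were 57 CAL27-led genes that were lower (0.469% of the 12144) and 39 that were higher (0.321%). HSC3-led genes, the mirror image, numbered 178 lower (1.47%) and 62 higher (0.511%). In 24 genes DOX raised the level in CAL27 and lowered it in HSC3 (0.198%), and in 20 the directions were the other way round (0.165%), with adjusted p under 0.05 in both lines. Alike genes were called in both lines in 1 direction, and the 95% confidence interval of their line difference lay within a fold of 1.5. There were 29 that were lower (0.239%) and 11 that were higher (0.0906%).

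**Figure D1:**
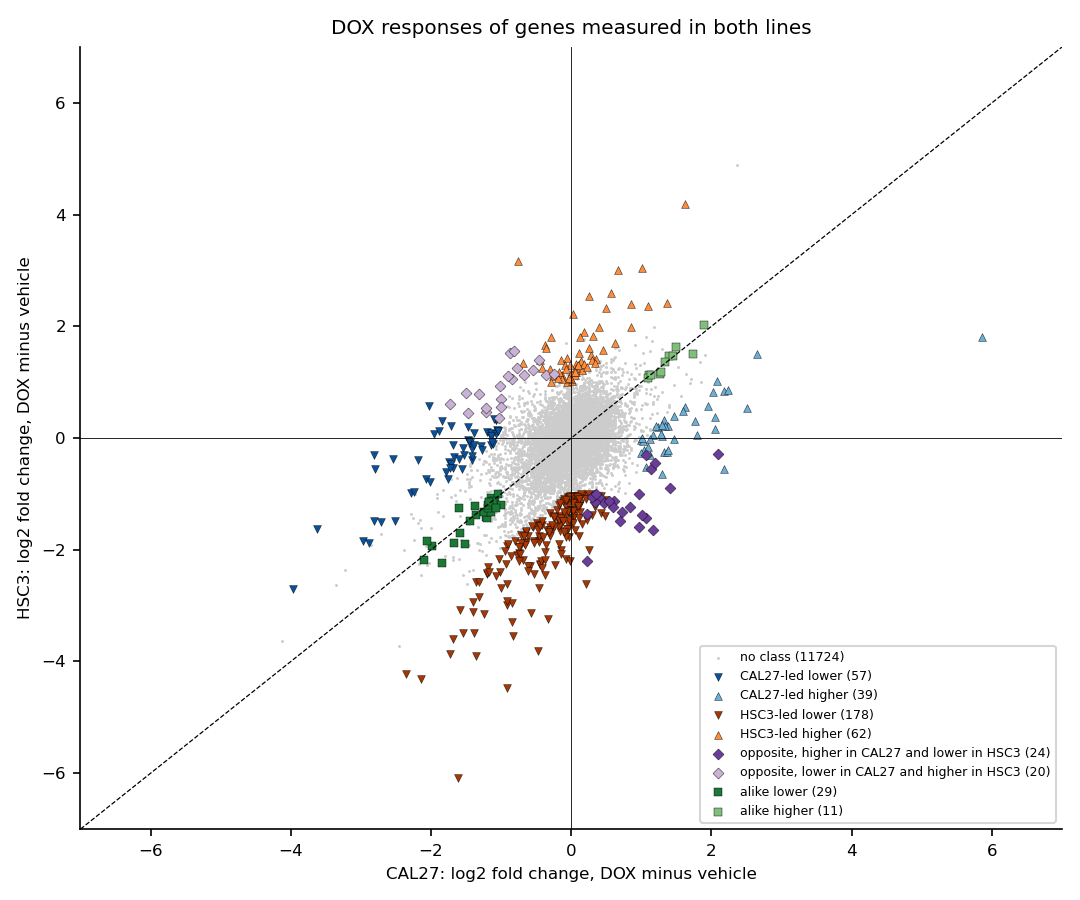
The log2 fold change of DOX over vehicle in CAL27 (x axis) and HSC3 (y axis) for the 12144 genes measured in both lines, with the 8 classes marked and the dashed line at equal responses. The 178 HSC3-led lower genes form the largest class, and the 44 opposite genes lie to the upper left and lower right.

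Of the genes called in either line, most were not called in the other. Genes called in both lines mostly changed in the same direction. Of the 12144 genes, 385 were called in CAL27 and 703 in HSC3, and 158 of these were called in both in the same direction (127 lower and 31 higher). The difference was itself called for 37 of the 158. Another 3 genes were called in both lines in opposite directions. A further 182 genes had a called difference without meeting the rule of a class.

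Of the gene lists used, that of type I ISGs held the most CAL27-led lower genes. Of the 57 members of this class, 12 were ISGs, and 3 more ISGs were alike and lower. Over the list, 64 of 67 ISGs tested were lower in CAL27 at an adjusted p under 0.05 (11.3% of all genes tested were) and 39 were lower in HSC3 (18.5% were). The line difference was above 0 for 45 at this p (8.25% of all genes) and below 0 for 4 (12.3%), and its median over the list was 0.78 beside -0.022 over all genes tested. The members of this family did not all move together in HSC3. OASL, an antiviral relative of the oligoadenylate synthetases, was HSC3-led lower, at 3.59, 1.56 and 2.08 CPM in HSC3 with vehicle and with 0, 14 and 0 reads with DOX, and between 11.5 and 46 CPM in CAL27. Its fitted line difference (-4.47 ± 0.66, adjusted p = 1.7e-04) thus rests on few reads in HSC3. EPSTI1, an interferon-induced antiviral gene, stood at 44.4, 40.1 and 42.0 CPM in CAL27 with vehicle and at 12.2, 11 and 11 with DOX. In HSC3 it stood at 45.7, 50.1 and 53.1 with vehicle and at 53.8, 53.5 and 54.5 with DOX. Its vehicle levels were close in the lines, and with DOX it was far lower in CAL27 while the HSC3 DOX libraries lay just above those with vehicle (responses -1.89 ± 0.072 and 0.12 ± 0.068, line difference 2.01, adjusted p = 8.9e-09).

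ISG15, a ubiquitin-like protein that is conjugated to other proteins, fell from 67.5, 57.3 and 58.3 CPM to 25, 21.8 and 23.3 in CAL27. In HSC3 its vehicle libraries (11.4, 7.29 and 7.14) and DOX libraries (6.94, 9.79 and 10.7) overlapped, and the line difference was 1.47 ± 0.24 (adjusted p = 4.0e-04). IFIH1, the cytosolic sensor of long double-stranded RNA, fell in CAL27 from 95.2, 88.1 and 99.2 CPM to 45.5, 42.7 and 39.0. Its HSC3 libraries overlapped between 27.1 and 32.4 CPM, and the line difference was 1.23 ± 0.11 (adjusted p = 1.2e-06). TRIM22, an antiviral E3 ubiquitin ligase, had responses of -2.80 ± 0.16 in CAL27 and -0.55 ± 0.15 in HSC3 (line difference 2.25, adjusted p = 4.7e-06), so that it fell in both lines by the test and by far more in CAL27. STAT2, a subunit of the factor that binds ISREs, showed the same order, at -1.14 ± 0.062 and -0.28 ± 0.061 (line difference 0.86, adjusted p = 6.1e-06). IRF1, which acts downstream of interferon-γ, was at -0.71 ± 0.13 in CAL27 and 0.25 ± 0.13 in HSC3 (line difference 0.96, adjusted p = 0.0014).

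Neighbouring ISGs fell in different classes. IFIT1, IFIT2 and IFIT3, which encode RNA-binding proteins that block translation of viral messages, lie near each other on the plus strand of chromosome 10 (IFIT2 at chr10:89283694-89309271, IFIT3 at chr10:89327307-89377473 and IFIT1 at chr10:89392546-89406487, GRCh38, GENCODE v44). IFIT1 fell in CAL27 from 155, 145 and 158 CPM to 39.1, 37.8 and 29.6, and in HSC3 from 20.5, 16.4 and 13.5 to 4.08, 3.47 and 3.57. Its responses of -2.10 ± 0.13 and -2.18 ± 0.14 differed by -0.075, with an interval from -0.47 to 0.32, which placed it in the alike class. IFIT2 fell in CAL27 from 124, 127 and 141 CPM to 57.2, 50.5 and 35.9, whereas in HSC3 the vehicle libraries (22.8, 19.7 and 19.5) and DOX libraries (22.0, 17.8 and 18.4) overlapped. Its line difference was 1.36 ± 0.19 (adjusted p = 1.1e-04), and that of IFIT3 was 1.24 ± 0.14 (adjusted p = 1.5e-05). The OAS genes, whose enzymes make the second messenger that activates RNase L, also lie together on chromosome 12. Their classes differed, but by a narrow margin. OAS3 fell alike (responses -1.60 ± 0.057 and -1.25 ± 0.057), although its small difference of 0.35 had an adjusted p of 0.0052, and OAS1 was CAL27-led (-2.51 ± 0.16 and -1.49 ± 0.16). The line difference of OAS1 was 1.01, at the edge of a call, and ran from 0.75 to 1.19 over the alternative settings. OAS2, with a difference of 0.92, was in no class. IFIT3, and IFI44 below, were named after their values were seen.

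The upstream sequence is shown for some ISGs that hold an ISRE match there yet differ in class. IFIT2, OAS1, TRIM22, STAT2 and IRF1, described above, had no match upstream of the start or no window. The ISRE core, GAAA followed by any 2 bases and GAAA again, was searched on both strands in RefSeq windows from 250 bases before to 50 bases after the gene start (GRCh38.p14). In the stretches below 1 match is in capitals, any further one is left in lower case, and a match on the other strand reads as TTTC, any 2 bases and TTTC. Of the CAL27-led genes, ISG15 lies at chr1:1013365-1013424 (plus strand), EPSTI1 at chr13:42992257-42992316 (minus), IFIH1 at chr2:162318685-162318730 (minus) and IFIT3 at chr10:89327850-89327909 (plus).
ISG15: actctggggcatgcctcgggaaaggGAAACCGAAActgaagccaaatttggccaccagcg
EPSTI1: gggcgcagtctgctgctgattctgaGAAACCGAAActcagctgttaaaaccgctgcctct
IFIH1: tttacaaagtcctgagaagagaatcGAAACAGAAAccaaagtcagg
IFIT3: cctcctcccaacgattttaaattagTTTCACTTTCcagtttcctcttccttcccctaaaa

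Of the alike genes, IFIT1 lies at chr10:89392495-89392554 (plus), OAS3 at chr12:112938437-112938473 (plus) and IFI44 at chr1:78649746-78649788 (plus).
IFIT1: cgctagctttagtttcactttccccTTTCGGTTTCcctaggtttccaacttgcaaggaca
OAS3: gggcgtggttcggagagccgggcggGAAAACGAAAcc
IFI44: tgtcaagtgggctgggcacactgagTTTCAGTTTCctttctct

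A window was held for 13782 of the 20694 genes tested, and 413 of these held the ISRE letters (3.0%). Among CAL27-led lower genes 11 of 36 windows held them (30.6%), among alike lower genes 3 of 21 (14.3%), and among HSC3-led lower genes 7 of 140 (5.0%). No match was found in the 48 windows of HSC3-led higher genes or the 25 of CAL27-led higher genes. The AP-1 letters TGANTCA were in 5 of the 25 CAL27-led higher windows (20%) beside 5.59% of all windows. The TEAD letters GGAATG were in 7 of the 25 (28.0%) beside 11.6%. Both shares were larger in the alike higher class, though on only 8 windows. Of these, 2 held the AP-1 letters and 3 the TEAD letters. Among the 20 windows of opposite genes higher in CAL27, 0 held the AP-1 letters and 3 the TEAD letters. These shares were not tested, and a match says only that the letters are there.

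Other immune genes lay on the same side. The antigen presentation and immunoproteasome list had 11 of 25 differences above 0 at an adjusted p under 0.05 and none below, and the list of guanylate-binding proteins and interferon-γ-linked effectors had 14 of 30 above and 5 below. LAP3, an interferon-inducible leucine aminopeptidase, was at -0.95 ± 0.067 in CAL27 and 0.071 ± 0.067 in HSC3 (line difference 1.02, adjusted p = 2.7e-06). APOL3, an interferon-inducible apolipoprotein, was lower in CAL27 (-1.0 ± 0.12) and higher in HSC3 (0.42 ± 0.12). Of 33 genes of NF-kB feedback and cytokines, 14 had a difference above 0 and 3 below. Over all genes tested, 8.25% of differences lay above 0 and 12.3% below at this p. The NF-kB share below 0 (9.09%) was thus near that of all genes. TNFAIP3, a deubiquitinase that restrains NF-kB, went in CAL27 from 85.7, 81.1 and 85.3 CPM to 44.4, 41.2 and 44.3, and in HSC3 from 217, 205 and 204 to 236, 231 and 249. The change was a fall in CAL27 and a small rise in HSC3 (line difference 1.15 ± 0.073, adjusted p = 7.5e-08). NFKBIZ, a nuclear co-regulator of NF-kB, differed by 1.07 ± 0.13 (adjusted p = 3.6e-05).

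Genes lower in CAL27 and higher in HSC3 included further inflammatory genes. CXCL1, a chemokine that attracts neutrophils, stood in CAL27 at 33.2, 28.5 and 32.2 CPM with vehicle and 11.5, 8.75 and 8.06 with DOX. In HSC3 it stood at 65.8, 65.1 and 69.7 with vehicle and 111, 94.5 and 100 with DOX, without overlap in either line. Its responses were -1.73 ± 0.11 and 0.61 ± 0.10 (line difference 2.34, adjusted p = 8.5e-08). BIRC3, an inhibitor of apoptosis induced by NF-kB, fell from 51.3, 48.4 and 54.6 to 27.7, 24.7 and 24.2 CPM in CAL27 and rose from 13.7, 10.7 and 12.7 to 26.4, 21.9 and 22.9 in HSC3. With these changes its level became nearly equal in the DOX libraries of the lines (line difference 1.95 ± 0.14, adjusted p = 2.3e-07).

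Other genes of this class had several kinds of product. FOXQ1, a forkhead factor, was at 66.1, 63.2 and 63.1 CPM in CAL27 with vehicle and at 73.8, 73.1 and 73.0 in HSC3. With DOX it was at 23.6, 22.0 and 22.3 in CAL27 and at 123, 129 and 131 in HSC3. From close starting levels the lines thus moved apart (responses -1.5 ± 0.052 and 0.80 ± 0.050, line difference 2.30, adjusted p = 9.7e-11). SGK1, a kinase induced by glucocorticoids and osmotic stress, moved by -0.90 ± 0.069 and 1.11 ± 0.069 (line difference 2.02, adjusted p = 8.9e-09). BCL11A, a zinc finger repressor, moved by -1.47 ± 0.069 and 0.45 ± 0.068 (line difference 1.92, adjusted p = 9.6e-09). LOX, the enzyme that crosslinks collagen, moved by -0.46 ± 0.093 and 1.39 ± 0.093 (line difference 1.85, adjusted p = 2.3e-07). NRARP, a NOTCH-induced repressor of NOTCH that was named after its values were seen, moved by -1.22 ± 0.086 and 0.46 ± 0.092 (line difference 1.68, adjusted p = 3.9e-07), and NOTCH1 itself, a CAL27-led lower gene outside this class, by -1.04 ± 0.094 and 0.12 ± 0.097 (line difference 1.16, adjusted p = 2.2e-05). Over the 35 NOTCH pathway genes the median difference was 0.079, with 7 above 0 and 4 below at an adjusted p under 0.05 (20% and 11.4%). The shares of all genes tested were 8.25% and 12.3%, so the share below 0 was near that of all genes.

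**Figure D2:**
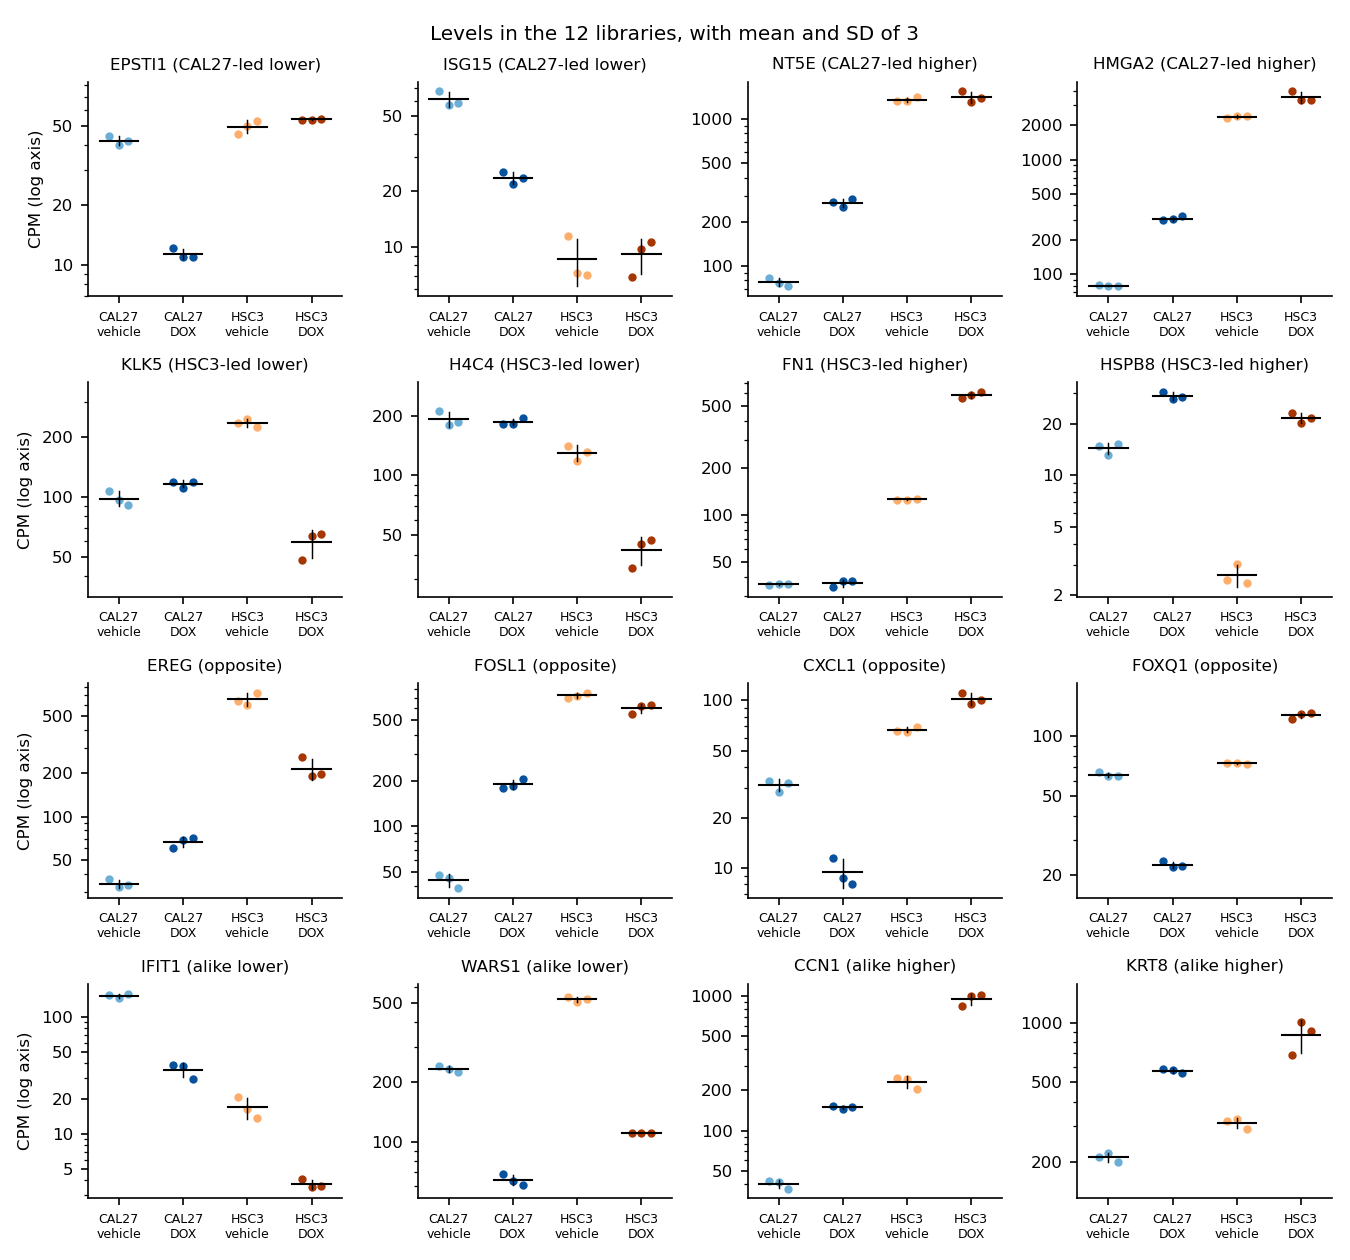
CPM in each of the 12 libraries (log y axis) for 16 genes, 4 for each row of classes, with points for libraries, a horizontal bar for the mean and a vertical bar for the SD of 3 libraries. EPSTI1 falls in CAL27 and not in HSC3, FN1 rises in HSC3 and not in CAL27, EREG and FOXQ1 move in opposite directions, and IFIT1 falls in both lines.

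The opposite genes that were higher in CAL27 and lower in HSC3 included EGFR ligands. EREG, which encodes epiregulin, stood in CAL27 at 36.7, 32.4 and 33.4 CPM with vehicle and at 60.6, 68.3 and 71.0 with DOX. In HSC3 it stood at 639, 594 and 727 with vehicle and at 258, 190 and 199 with DOX. The responses of 0.96 ± 0.11 and -1.60 ± 0.11 gave a line difference of -2.56 (adjusted p = 3.8e-08). AREG, which encodes amphiregulin and lies near it on chromosome 4 (EREG at chr4:74365145-74388749 and AREG at chr4:74445136-74455005, both plus strand, GENCODE v44), rose from 8.92, 8.42 and 9.52 to 19.3, 21.5 and 18.4 CPM in CAL27 and fell from 783, 799 and 825 to 537, 575 and 516 in HSC3. Both ligands thus stayed far higher in HSC3 than in CAL27 while the gap narrowed. NRG1, a ligand of ERBB3 and ERBB4, moved by 0.35 ± 0.077 and -1.0 ± 0.077 (line difference -1.35, adjusted p = 8.3e-07). TGFA, a further EGFR ligand, was HSC3-led, at 0.11 ± 0.068 and -1.10 ± 0.068 (line difference -1.22, adjusted p = 6.5e-07).

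Of 18 tested genes of this family and related receptors, 9 line differences lay below 0 and 3 above at an adjusted p under 0.05. The shares of all genes tested were 12.3% and 8.25%. Of the 9, 8 were called, and 3.02% of all genes tested were called below 0. The receptor EGFR itself, named after its values were seen, was not among these 8, and its difference was 0.31 (adjusted p = 0.0029). AXL, another receptor tyrosine kinase, rose in CAL27 (0.62 ± 0.061) and fell in HSC3 (-0.43 ± 0.060). The median line difference of the list was -0.54. It ranged from -1.0, without the HSC3 DOX library numbered 1, to -0.37, with genes of at least 8 CPM in each line.

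FOSL1, an AP-1 subunit, was of the same class. It rose in CAL27 from 47.9, 45.4 and 39.2 CPM to 180, 183 and 204, and in HSC3 it went from 703, 728 and 760 to 551, 618 and 631. The rise in CAL27 (2.09 ± 0.078) was large and the fall in HSC3 (-0.28 ± 0.074, adjusted p = 0.0076) small, with a line difference of -2.38 (adjusted p = 5.2e-09). DUSP4, a phosphatase that inactivates ERK, was CAL27-led, with a rise from 5.79, 5.73 and 4.45 to 16, 17.3 and 20.7 CPM in CAL27 and a response of 0.30 ± 0.095 in HSC3, where vehicle libraries already held 74.3, 77.0 and 73.7. PHLDA1 differed by -1.18 ± 0.075 (adjusted p = 7.5e-08) and ETV5, an ETS factor downstream of ERK, by -1.0 ± 0.082 (adjusted p = 8.6e-07). Over the 26 AP-1 and immediate early genes, 13 differences lay below 0 at an adjusted p under 0.05 and 2 above. The shares of all genes tested were 12.3% and 8.25%.

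HAS3, which makes hyaluronan, moved by 1.07 ± 0.11 and -1.43 ± 0.11 (line difference -2.50, adjusted p = 5.5e-08), and MAP1B, a microtubule-associated protein, by 1.01 ± 0.10 and -1.37 ± 0.10 (line difference -2.37, adjusted p = 5.5e-08). FBN2, a fibrillin of elastic microfibrils, moved by 0.60 ± 0.074 and -1.24 ± 0.073 (line difference -1.84, adjusted p = 3.0e-08). All 3 were more abundant in HSC3 than in CAL27 in every library. The median of mean levels over the 24 genes of this class was 13.4 CPM in CAL27 and 32.5 CPM in HSC3, whereas for the 20 genes of the other opposite class it was 31.8 and 19.7.

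CAL27-led higher genes had the same order of levels, with a median of 5.98 CPM in CAL27 and 22.1 in HSC3. NT5E, the ectoenzyme CD73 that makes adenosine, rose in CAL27 from 83.0, 77.4 and 73.3 CPM to 272, 251 and 284, and its HSC3 libraries overlapped between 1304 and 1543 CPM. The response was 1.79 ± 0.070 in CAL27 and 0.062 ± 0.067 in HSC3 (line difference -1.73, adjusted p = 2.9e-08). HMGA2, a chromatin protein of embryonic and mesenchymal cells, rose from 80.6, 79.4 and 78.9 to 299, 302 and 321 in CAL27 and from 2322, 2404 and 2438 to 3973, 3302 and 3339 in HSC3. It passed the test in both lines, and the rise was larger in CAL27 (line difference -1.38 ± 0.090, adjusted p = 9.7e-08). RAB3B, a secretory GTPase, IL31RA, a cytokine receptor subunit, and F3, the tissue factor that starts coagulation, rose in CAL27 by 1.38 ± 0.097, 1.46 ± 0.10 and 1.34 ± 0.068. Their line differences were -1.58, -1.48 and -1.12.

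DNA replication genes moved in opposite directions with small changes. Of the 56 tested, 37 were higher in CAL27 at an adjusted p under 0.05 and 0 were lower (13.3% and 11.3% of all genes tested were), and 41 were lower in HSC3 and 2 higher (18.5% and 16.1% were). In 28 of them the test was passed upward in CAL27 and downward in HSC3 at once, as in 366 of all 20694 genes tested. The line difference was below 0 for 49 and above 0 for none at this p (12.3% and 8.25% of all genes tested were). Of the 49, 7 were called, beside 3.02% of all genes tested called below 0. Most of these changes were too small for a class, and CLSPN alone entered one. CLSPN, the claspin adaptor of the replication checkpoint, stood in CAL27 at 90.2, 85.6 and 85.5 CPM with vehicle and at 112, 117 and 132 with DOX. In HSC3 it stood at 88.9, 96.3 and 99.2 with vehicle and at 43.4, 43.8 and 40.2 with DOX, so that libraries with similar vehicle levels separated (line difference -1.62 ± 0.094, adjusted p = 3.8e-08).

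Other replication genes followed it. MCM10 and CDC45, which help to assemble and drive the replicative helicase, moved by 0.63 ± 0.066 and -0.50 ± 0.066, and by 0.44 ± 0.084 and -0.66 ± 0.085. GINS2, a subunit of the same helicase, moved by 0.39 ± 0.13 and -0.79 ± 0.13 (line difference -1.18, adjusted p = 2.5e-04). CDC25A, a phosphatase that activates cyclin-dependent kinases and was named after its values were seen, was CAL27-led and rose from 12.9, 11.8 and 11.3 to 28.8, 28.9 and 30.7 CPM. Its HSC3 libraries lay between 19.6 and 20.8 in both treatments. CCNE1, cyclin E1, also named after its values were seen, moved by 0.69 ± 0.16 and -1.48 ± 0.19 (line difference -2.17, adjusted p = 1.6e-05). Of 67 mitosis and kinetochore genes, 56 had a difference below 0 and none above, with 27 higher in CAL27 and 47 lower in HSC3. In that order, the shares of all genes tested were 12.3%, 8.25%, 13.3% and 18.5%. SPC24, of the NDC80 complex, and PBK, a mitotic kinase, were the 2 called, both HSC3-led, with line differences of -1.04 ± 0.11 and -1.03 ± 0.13.

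Replication-dependent histone genes, a list added after the values were seen, supplied 16 of the 178 HSC3-led lower genes. Of the 59 tested, 51 passed an adjusted p of 0.05 as lower in HSC3 and 0 as higher, whereas 3 were lower and 3 higher in CAL27. In that order, the shares of all genes tested were 18.5%, 16.1%, 11.3% and 13.3%. The median response was -0.93 in HSC3 and -0.056 in CAL27. H4C4, an H4 gene at chr6:26188710-26189112 (minus strand), went in CAL27 from 210, 180 and 186 CPM to 182, 181 and 194, with overlap, and in HSC3 from 141, 118 and 132 to 34.4, 45.0 and 47.6. H1-3, a linker histone, had responses of -0.46 ± 0.056 in CAL27 and -1.86 ± 0.059 in HSC3 (line difference -1.40, adjusted p = 3.6e-08). H4C4 and H1-3 were named after their values were seen. The list median in the 3 HSC3 DOX libraries was -1.25, -0.698 and -0.757 relative to vehicle, so 1 library lay well below the others. The messages of these genes mostly lack a poly(A) tail, and the libraries were made from poly(A) RNA. The part of this in the fall was not tested, and near-identical copies may share reads.

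**Figure D3:**
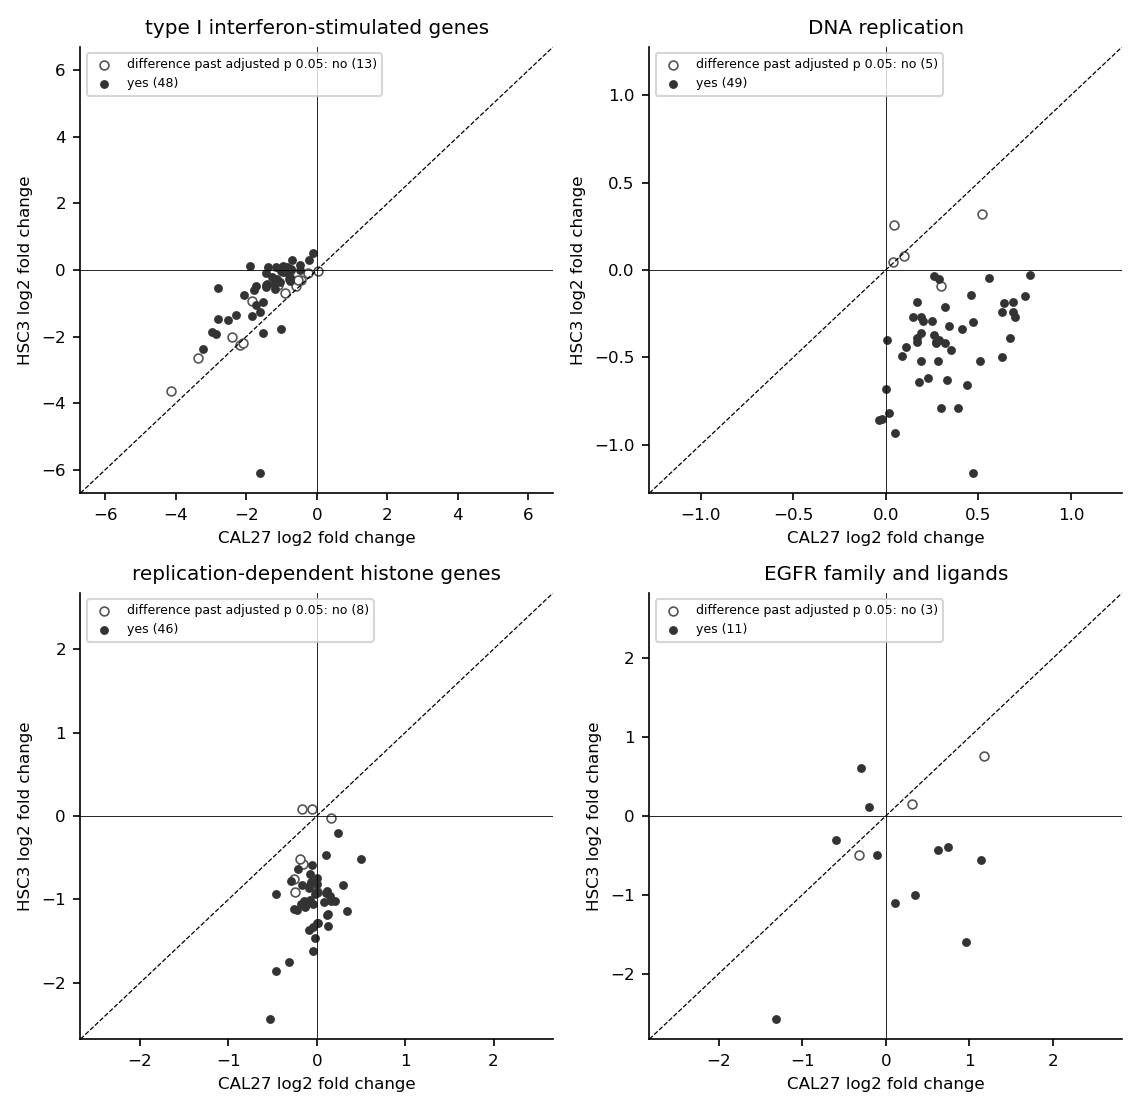
Log2 fold changes in CAL27 (x axis) and HSC3 (y axis) of the genes of 4 lists with at least 1 CPM in both lines, filled where the line difference had an adjusted p under 0.05, with the dashed line at equal responses. Most ISGs lie above the line, 49 of the 54 DNA replication genes lie below it with a filled symbol, and the histone genes lie low on the y axis near 0 on the x axis.

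The remaining HSC3-led lower genes were of many kinds. KLK5, a serine protease of the skin surface, stood in CAL27 at 107, 96.3 and 90.4 CPM with vehicle and at 119, 111 and 119 with DOX, and in HSC3 at 235, 246 and 224 with vehicle and at 48.0, 63.3 and 65.3 with DOX. It was lower in HSC3 and not in CAL27 (responses 0.25 ± 0.094 and -2.00 ± 0.098, line difference -2.25, adjusted p = 4.9e-08). PDPN, the podoplanin glycoprotein of invasive fronts, fell from 22.8, 23.9 and 23.3 to 3.18, 5.45 and 4.12 CPM in HSC3 and by 0.38 ± 0.12 on the log2 scale in CAL27 (line difference -2.08, adjusted p = 1.6e-06). NGFR, the low-affinity neurotrophin receptor of basal cells, fell from 30.1, 25.6 and 29.8 to 2.01, 2.60 and 3.05 in HSC3, with responses of -1.39 ± 0.14 in CAL27 and -3.49 ± 0.15 in HSC3. BCAM, a laminin receptor, fell from 156, 162 and 154 to 28.1, 35.7 and 32.7 in HSC3 and from 159, 152 and 148 to 102, 95.8 and 103 in CAL27. From near-equal starting levels its fall was thus larger in HSC3 (line difference -1.68 ± 0.10, adjusted p = 5.4e-08).

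LCN2, an iron-binding lipocalin, and HR, a corepressor of hair follicles, had line differences of -2.11 ± 0.27 and -2.06 ± 0.29. FADS1, the delta-5 fatty acid desaturase, had responses of -0.17 ± 0.067 and -1.47 ± 0.068 (line difference -1.30, adjusted p = 3.1e-07), from vehicle levels of 134, 137 and 133 CPM in CAL27 and 134, 128 and 135 in HSC3. COL12A1, a fibril-associated collagen, and TIMP3, an inhibitor of metalloproteinases, fell in HSC3 by 1.89 ± 0.071 and 1.43 ± 0.075 on the log2 scale. Neither passed the test in CAL27, with responses of -0.17 ± 0.067 and 0.11 ± 0.076.

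The enzymes of the NRF2 antioxidant programme leaned the same way. Of 30 tested, 19 were lower in HSC3 at an adjusted p under 0.05 and 0 higher (18.5% and 16.1% of all genes tested were). In CAL27, 9 were lower and 5 higher (11.3% and 13.3%). For the line difference, 15 lay below 0 and none above (12.3% and 8.25%). AKR1C1, AKR1C2 and AKR1C3, aldo-keto reductases of steroid metabolism, had line differences of -1.71 ± 0.20, -2.17 ± 0.27 and -1.90 ± 0.28. They fell in both lines, lie next to each other on chromosome 10 and share much sequence, so reads may be split among them. They were named after their values were seen. ABCC3, an efflux pump, rose in CAL27 (0.68 ± 0.082) and fell in HSC3 (-0.90 ± 0.080), for a line difference of -1.58 (adjusted p = 3.0e-07).

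FN1, which encodes fibronectin, had the largest difference among HSC3-led higher genes of at least 8 CPM in both lines. In HSC3 it went from 124, 125 and 127 CPM to 558, 586 and 611, whereas its 6 CAL27 libraries lay between 34.4 and 37.7. The responses were 0.027 ± 0.051 and 2.22 ± 0.052, and the line difference was 2.20 (adjusted p = 9.7e-11). HSPB8, a small heat shock protein of selective autophagy, rose from 2.44, 3.06 and 2.35 to 23.0, 20.1 and 21.7 in HSC3 and from 14.9, 13.2 and 15.2 to 30.6, 27.8 and 28.6 in CAL27. Its rise was called in both lines and was larger in HSC3 (line difference 2.05 ± 0.14, adjusted p = 2.1e-07). CGN, the tight junction protein cingulin, rose by 1.99 ± 0.090 in HSC3 and 0.40 ± 0.085 in CAL27, LCP1, an actin bundler of leukocytes and carcinomas, by 2.40 ± 0.10 and 0.85 ± 0.095. BMF, a pro-apoptotic BH3-only protein, rose by 1.40 ± 0.12 in HSC3 with a CAL27 response of -0.14 ± 0.11 (line difference 1.53, adjusted p = 8.3e-06).

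Some barrier and matrix genes divided the lines. CLDN1, a tight junction claudin, fell in CAL27 from 4032, 3737 and 4006 CPM to 1536, 1374 and 1332, and its HSC3 libraries overlapped between 517 and 720 (line difference 1.66 ± 0.12, adjusted p = 3.0e-07). MMP1, the interstitial collagenase, fell in CAL27 from 450, 457 and 492 to 48.8, 37.1 and 27.5 and in HSC3 from 229, 238 and 218 to 74.3, 72.0 and 75.7. Both falls were called, and that in CAL27 was larger by 2.00 ± 0.19 (adjusted p = 3.3e-06). Its neighbours on chromosome 11, MMP10 and MMP3, named after their values were seen, were CAL27-led too, with line differences of 1.26 ± 0.37 (adjusted p = 0.027) and 2.49 ± 0.25. PLAT, tissue plasminogen activator, moved by -0.59 ± 0.076 and 0.45 ± 0.079. KRT80, a keratin of differentiating cells, moved by 0.78 ± 0.053 and -0.52 ± 0.054, and the epithelial factor EHF the other way, by -0.38 ± 0.069 and 0.70 ± 0.069.

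The mitochondrially encoded subunits rose in HSC3. All 13 tested passed an adjusted p of 0.05 there and 2 did in CAL27, each as higher (16.1% and 13.3% of all genes tested). The median response was 0.54 and 0.059, and the line difference was above 0 for 7 (8.25%). MT-ND4, a complex I subunit named after its values were seen, went from 10647, 11569 and 10277 CPM to 18535, 13351 and 16197 in HSC3 (0.57 ± 0.12), and between 8700 and 11951 in CAL27. The share of all counts on mitochondrial genes was 5.94% to 6.51% in HSC3 with vehicle, 7.58% to 9.63% with DOX and 6.39% to 8.23% in CAL27, in the same libraries whose counts per molecule differed; the part of that was not tested. Of 75 nuclear-encoded subunits of oxidative phosphorylation, 15 were higher in HSC3 and 1 lower, a share of higher genes near the 16.1% of all genes tested, and the median response was 0.089. Of 9 metallothioneins, a list added after the values were seen, 5 were higher in HSC3 (16.1% of all genes tested were) and 3 lower in CAL27 (11.3% were), and 3 line differences lay above 0 (8.25%).

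With an interval of the difference held within a fold of 1.5 in either direction, 40 genes responded alike, a number that depends on this limit. WARS1, an interferon-inducible tryptophanyl-tRNA synthetase, fell from 239, 231 and 224 to 68.3, 63.6 and 60.6 CPM in CAL27 and from 531, 502 and 524 to 110, 110 and 110 in HSC3 (responses -1.85 ± 0.052 and -2.24 ± 0.053). Its interval, from -0.54 to -0.23, left out 0 and stayed within the limit of the class. TP53INP1, a stress protein of autophagy, fell from 17.5, 15.7 and 18.6 to 4.36, 4.01 and 4.11 in CAL27 and from 15.1, 14.6 and 13.9 to 3.82, 4.21 and 4.07 in HSC3 (difference 0.21, interval -0.073 to 0.48). ACKR3, a scavenging chemokine receptor, and IL20RB, a subunit of interleukin-20 receptors, differed by -0.22 (interval -0.51 to 0.071) and -0.11 (interval -0.52 to 0.30). TP63, the master factor of squamous epithelium, fell by 1.00 ± 0.048 and 1.20 ± 0.048 on the log2 scale, at the edge of a call in CAL27. Its target KRT5 fell from 3791, 3663 and 3648 to 1838, 1780 and 1741 CPM in CAL27 and from 2811, 3092 and 2758 to 1285, 1552 and 1493 in HSC3. KRT5 was named after its values were seen. Of 30 squamous lineage genes, 20 were lower in CAL27 and 17 in HSC3, and 16 of them were lower in both. Of all 20694 genes tested, 11.3% and 18.5% were lower, and 1310 genes in both. JAG1, a NOTCH ligand, fell by 0.93 ± 0.044 and 0.91 ± 0.044, short of a called change in either line.

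The alike higher genes included a matrix protein and keratins. CCN1, a secreted matrix protein that YAP induces, rose from 42.3, 41.3 and 37.1 to 153, 145 and 150 CPM in CAL27 and from 245, 242 and 205 to 835, 993 and 1006 in HSC3 (difference 0.14, interval -0.099 to 0.39). KRT8, a keratin of simple epithelium, rose from 211, 220 and 198 to 586, 576 and 559 and from 318, 328 and 293 to 690, 1012 and 906 (difference 0.022, interval -0.28 to 0.32). Its partner KRT18 and the matrix protein THBS1, named after their values were seen, rose by 1.26 ± 0.081 and 1.15 ± 0.080 and by 1.28 ± 0.060 and 1.18 ± 0.060. SCEL, a precursor of the cornified envelope, DDAH1, an enzyme that degrades a nitric oxide synthase inhibitor, and ANKRD22, an ankyrin repeat protein, differed by -0.23, 0.13 and 0.081, each with an interval that held 0. Of 28 YAP-TEAD target genes, 20 were higher in CAL27 and 14 in HSC3 (13.3% and 16.1% of all genes tested were), with 12 higher in both, as were 1293 of all 20694 genes tested.

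**Figure D4:**
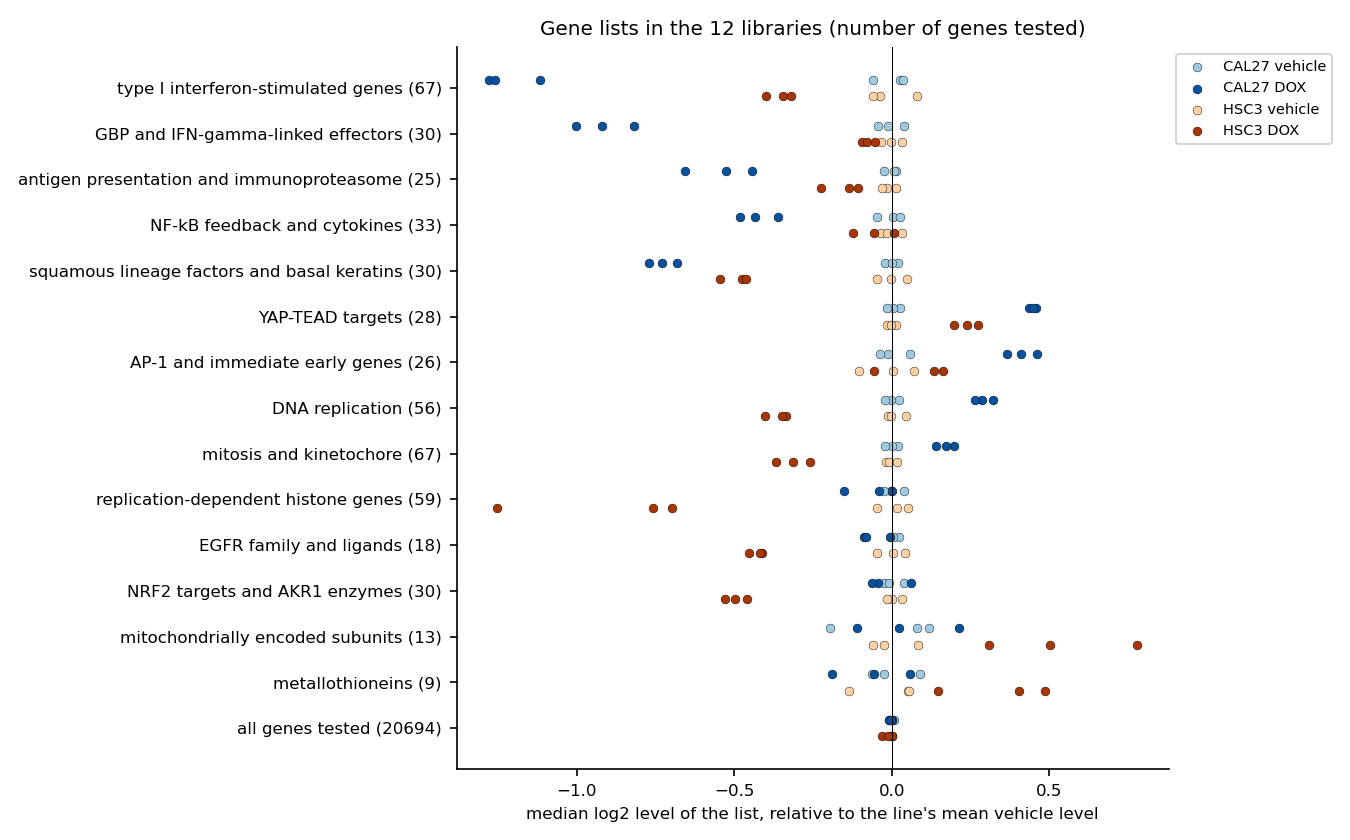
Median log2 level (x axis) of 14 gene lists and of all genes tested in each of the 12 libraries, relative to the mean of the vehicle libraries of the same line, with the number of genes tested in brackets. The ISG list lies between -1.28 and -1.12 in CAL27 DOX libraries and between -0.398 and -0.321 in HSC3 DOX libraries, and the DNA replication list lies above 0 in CAL27 and below 0 in HSC3.

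The 26 genes that the study itself named were chosen by it on these samples and are no independent evidence of a direction. Of these, 25 were lower in CAL27 and 20 in HSC3, with 12 line differences above 0 and 4 below. Other lists showed smaller contrasts. Of all 20694 genes tested, 11.3% were lower in CAL27, 18.5% in HSC3 and 1310 genes in both. The ATF4 list had 15 of 30 genes lower in CAL27 and 19 in HSC3, and 12 were lower in both. Its member ALDH1L2, a mitochondrial folate enzyme, was at -0.75 ± 0.086 in CAL27 and 0.57 ± 0.083 in HSC3. Among 35 glycolysis and hypoxia genes, 14 were lower in each line and 10 in both, with ADM, the peptide adrenomedullin, at -0.79 ± 0.075 and 0.38 ± 0.074. Median line differences were 0.14 for cholesterol synthesis, -0.089 for fatty acid synthesis, 0.069 for aminoacyl-tRNA synthetases, 0.11 for cytosolic ribosomal proteins and -0.006 for chromatin regulators. They were -0.044 for p53 targets, -0.12 for heat shock and endoplasmic reticulum chaperones, -0.094 for the WNT pathway, 0.18 for claudins and tight junction genes and -0.27 for integrins and laminins. Those of epidermal differentiation, matrix and mesenchymal genes, and matrix metalloproteinases and the plasminogen system were -0.29, -0.15 and -0.22. Within the WNT list WNT7B and TCF7 differed by -1.08 ± 0.083 and -1.01 ± 0.12 and WNT10A by 1.20 ± 0.13, and HDAC5 among the chromatin regulators differed by 1.01 ± 0.15.

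Genes hardly counted in 1 line could not be compared in the same way. MMP12, macrophage elastase, fell in CAL27 from 17.1, 18.8 and 18.6 to 1.41, 1.13 and 0.994 CPM, with HSC3 libraries between 0.124 and 0.584. KRT13, a keratin of oral mucosa, fell from 26, 24.2 and 24.6 to 3.26, 2.11 and 1.93 in CAL27, with HSC3 libraries between 0.116 and 0.563. In HSC3, EDNRA, the endothelin A receptor, fell from 43.3, 41.4 and 40.2 to 12.8, 13.4 and 11.7, and VGLL1, a cofactor of TEAD, rose from 7.99, 8.26 and 8.60 to 30.6, 28.6 and 32.2, with CAL27 libraries at or under 1.21 CPM for both. PCLO, a presynaptic scaffold, was lower in CAL27 (-2.73 ± 0.25, from 0.783, 0.868 and 0.561 CPM) and higher in HSC3 (1.16 ± 0.16). VCAN, the proteoglycan versican, rose in CAL27 from 4.34, 5.01 and 4.17 to 15.6, 15.7 and 16.6 CPM and had no count in 5 of the 6 HSC3 libraries, so no fold is given for HSC3.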

How the data were processed

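RNA was sequenced from 12 libraries, 3 in each of 4 groups, taken from cells cultured in triplicate. Where nothing says that cultures were independent, p-values measure only the spread between these libraries. The authors used TRIzol, a TruSeq stranded poly(A) kit and STAR on GRCh38, and deposited raw read counts per gene symbol, 1 table a line. The submitters' processing notes also name FastQC 0.11.9, STAR 2.7.9a, Subread 2.0.1 and featureCounts. How strand and duplicate reads were treated is not given in the sources used here. Of the list genes, 1 was not matched. The tables were joined by symbol (39368 in each).

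Counts were fitted with edgeR 4.0.16 in R 4.3.3: quasi-likelihood test, 4 group means, TMM scaling, genes kept by filterByExpr (minimum count 10, minimum total 15). The responses of each line and their difference were tested with Benjamini-Hochberg adjustment. Genes named were the 26 the study named, the 5 of each class with the largest difference (alike genes: the largest smaller response) among those of at least 8 CPM in both lines and with libraries apart, up to 4 of each list with a called difference at that level, and, for genes called in 1 line and under 1 CPM in the other, the 3 strongest each way. Of these, several are not reported here. The members and lists were chosen with earlier results of these data known, and 2 lists, of histone genes and metallothioneins, after their values were seen. Sequences came from RefSeq. Alternatives were limma 3.58.1, DESeq2 1.42.0, other filters, thresholds and scalings, and each library left out. The procedure was tried on simulated counts. All 150 genes made to differ between the lines were called, as were 23 that did not differ, and 45 of 50 alike genes were classed as alike. Changed genes held at least 8 CPM in both lines and moved by a log2 of 1.5. Changes in genes counted less, or smaller ones, were not simulated.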

Additional observations from a re-analysis of the deposited data

Results flagged for a closer look

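The responses of the lines differed by the test of the difference itself, which is what brought the following results here. It was called for 624 genes below 0 and 454 above 0 (3.02% and 2.19% of genes tested). Among the genes named by the rule or singled out after their values were seen, 110 of those reported here passed an adjusted p of 0.05, 56 above 0 and 54 below. Groups of 3 libraries were not searched for a library apart from the others. Values are log2 line differences, HSC3 minus CAL27, from edgeR.

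The response was higher in HSC3 for MMP3 (2.49), CXCL1 (2.34), FOXQ1 (2.30), TRIM22 (2.25), FN1 (2.20), HSPB8 (2.05), SGK1 (2.02), EPSTI1 (2.01), MMP1 (2.00), BIRC3 (1.95), BCL11A (1.92) and LOX (1.85). Smaller values were those of NRARP (1.68), CLDN1 (1.66), CGN (1.59), S100A9 (1.56), LCP1 (1.55), BMF (1.53), ISG15 (1.47), APOL3 (1.42), MT1X (1.38), IFIT2 (1.36), ALDH1L2 (1.33) and IFI27 (1.33). They were followed by IFITM1 (1.32), KRT15 (1.29), MMP10 (1.26), IFIT3 (1.24), IFIH1 (1.23), WNT10A (1.20), ADM (1.17), NOTCH1 (1.16), TNFAIP3 (1.15), MT1E (1.11) and EHF (1.08). Below these in size came NFKBIZ (1.07), PLAT (1.04), LAP3 (1.02), OAS1 (1.01), HDAC5 (1.01), IRF1 (0.96), MX1 (0.94), GBP1 (0.94), OAS2 (0.92), STAT2 (0.86), MX2 (0.85) and MT-ND4 (0.65). The smallest of this sense belonged to MT-CO1 (0.53), OAS3 (0.35) and EGFR (0.31).

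The response was higher in CAL27 for OASL (-4.47), EREG (-2.56), HAS3 (-2.50), FOSL1 (-2.38), MAP1B (-2.37), KLK5 (-2.25), AKR1C2 (-2.17), CCNE1 (-2.17), LCN2 (-2.11), NGFR (-2.09), PDPN (-2.08) and HR (-2.06). Smaller values were those of AKR1C3 (-1.90), H1-1 (-1.89), FBN2 (-1.84), NT5E (-1.73), COL12A1 (-1.72), AKR1C1 (-1.71), AREG (-1.70), BCAM (-1.68), CLSPN (-1.62), RAB3B (-1.58), ABCC3 (-1.58) and H4C4 (-1.58). They were followed by TIMP3 (-1.54), IL31RA (-1.48), DUSP4 (-1.46), H2BC7 (-1.45), H1-3 (-1.40), HMGA2 (-1.38), NRG1 (-1.35), FADS1 (-1.30), KRT80 (-1.30), LFNG (-1.29), CDC25A (-1.26) and TGFA (-1.22). Below these in size came GINS2 (-1.18), PHLDA1 (-1.18), MCM10 (-1.13), F3 (-1.12), CDC45 (-1.11), WNT7B (-1.08), AXL (-1.05), SPC24 (-1.04), PBK (-1.03), TCF7 (-1.01), ETV5 (-1.0) and WARS1 (-0.39). The smallest of this sense belonged to IFI44 (-0.38) and TP63 (-0.20).

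A mean under 1 CPM in at least 1 line goes with the values of VCAN (-6.46), PCLO (3.89), MMP12 (3.52), KRT13 (2.25), SOX2 (-2.14), VGLL1 (2.07), KRT16P6 (-1.38), MUC1 (1.36), PSG5 (1.33) and EDNRA (-0.74). That of VCAN is set by HSC3 libraries without counts and is no bound on a fold. With counts divided by counts per molecule, the differences of VCAN, KRT13, SOX2, KRT16P6 and MUC1 did not pass the test.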

How the results depend on the processing

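No called line difference of a named gene changed sign under any alternative run. Small medians did: over all genes tested -0.022 became 0.001 without HSC3 vehicle library 1, fatty acid synthesis reached 0.11 with genes of at least 8 CPM, p53 targets 0.032 without CAL27 vehicle library 1, and chromatin regulators, glycolysis and hypoxia, and matrix metalloproteinases and the plasminogen system 0.057, 0.022 and 0.14 without HSC3 DOX library 1. With only genes of at least 8 CPM in each line refitted, 136 genes were called lower and 46 higher in CAL27, 236 and 71 in HSC3, and the line difference was called for 127 below 0 and 102 above. The classes then held 29 CAL27-led lower, 14 CAL27-led higher, 59 HSC3-led lower and 15 HSC3-led higher genes and 14 and 13 opposite ones. Taking only genes of that level from the fit of all genes gave 22, 16, 66, 16, 14 and 10. These counts come from fewer genes. A fold of 1.5 in place of 2 gave 1138 and 539 in CAL27, 2039 and 1148 in HSC3, differences of 1293 and 939, classes of 204, 124, 500, 271, 106 and 71, and 112 and 70 alike genes. A test against a fold of 2 (glmTreat) gave 138 and 47, 463 and 105, and 128 and 53. An adjusted p under 0.01 left 305 genes higher in HSC3 and 275 differences above 0, and alike within a fold of 2 gave 59 and 19. limma voom called 1137 and 308 genes in CAL27, and the MUC1 difference was 1.01 (adjusted p = 0.2). Each line fitted alone called 984 genes lower in CAL27 and 793 and 284 in HSC3, which turns the order of the lines in genes lower. Counts divided by counts per molecule gave 352 genes higher in HSC3 and 1.31 for MUC1 (adjusted p = 0.097). The cause of these shifts was not tested.

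Leaving out each library in turn gave 462 to 733 genes lower and 147 to 186 higher in CAL27, 1164 to 1584 and 474 to 679 in HSC3, and 488 to 889 differences below 0 and 352 to 606 above. In the order used above the classes ran from 53 to 77, 30 to 41, 161 to 214, 57 to 77, 13 to 28, 17 to 27, 27 to 39 and 11 to 13, and the 13 genes higher in CAL27 and lower in HSC3 came without the CAL27 DOX library in column 6. The MUC1 difference ran from 1.14 to 1.63. Columns of CAL27 DOX libraries carry other numbers than those of vehicle, so a replicate block could be fitted only in HSC3. Deviations of HSC3 vehicle and DOX libraries with the same number correlated at -0.199, 0.344 and -0.335. With different numbers they correlated at -0.434 to 0.475. Deviations were taken from a mean of 3 libraries, so these values are bound to each other. They cannot show whether the numbers pair the libraries. With the block, 653 and 189 genes were called in CAL27, 1418 and 690 in HSC3, and 749 and 599 differences. DESeq2 gave 565 and 174, 1385 and 700, and 696 and 550. Classes made with effects from each line alone, a setting chosen after seeing the data, shared 57, 39, 167, 55, 22, 17, 29 and 11 genes with those reported. This setting kept the line difference and its interval from the fit of all libraries, so its overlap is no independent check. Its opposite classes held 33 and 23 genes. Over the single genes named, 2102 of the values recomputed stayed on the same side of the threshold, 41 lost it and 15 gained it. The line difference of TP63 lost it in 14 of 20 settings, that of MX2 in 11 of 20 and that of KRT16P6 in 10 of 19.

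Depth limits the genes under 1 CPM in 1 line, and the HSC3 DOX libraries hold the fewest molecules.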
